A study of Mus musculus with 18 samples.

Results

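Klf2, Klf3, S1pr1, Ccr7, Cxcr4 and Cd44 encode transcription factors and surface receptors with known roles in the recirculation of T cells through blood, lymph and lymphoid organs. They were taken by symbol from the deposited normalized table, where they were 6 of 14011 genes. All 6 were among the 12445 genes of the count table that passed the filter on low counts. RNA was sequenced from regulatory T cells, the Foxp3-expressing CD4+ cells that restrain immune responses, of 3 littermate mice numbered 84, 86 and 87. The mice carried Id3-GFP and Foxp3-mRFP reporters on a C57BL/6 background, and the labels give neither age nor sex. From peripheral lymph nodes and from spleen of each mouse, 3 populations were sorted at 500 cells per library. Id3- effector regulatory T cells (Id3- eTR) were labelled by the absence of Id3-GFP, with no CD44 gate named in the label. Id3+ effector cells (Id3+ eTR) were gated as high for CD44 and Id3+ central cells (Id3+ cTR) as low for CD44, both with a further surface marker. Each of the 6 combinations of tissue and population therefore held 3 libraries, 1 per mouse. The series title places the populations in a stepwise order of differentiation. Each library was a pool of sorted cells, so that fewer cells expressing a gene and less RNA per cell cannot be told apart.

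KLF2 is a zinc finger transcription factor of resting lymphocytes. FOXO1 maintains it, signalling through the antigen receptor and PI3K removes it, and it activates S1pr1. S1PR1 senses sphingosine-1-phosphate and draws T cells out of lymphoid organs. CCR7 senses CCL19 and CCL21 in high endothelial venules and T cell zones, and CXCR4 senses CXCL12. KLF3 is a repressor of the same family that binds CACCC boxes and recruits CtBP. CD44 is a hyaluronan receptor that is abundant on antigen-experienced T cells.

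The 2 Klf genes both had lower means in the effector populations than in Id3+ cTR of each tissue, though their orders over the 6 groups differed. The 250 bases before the annotated start of each are shown, both on the plus strand and from RefSeq's table for GRCm38.p6. Capitals in the Klf2 sequence, chr8:72318812-72319061, mark the single match to a MEF2 consensus, the type of site through which ERK5 acts on Klf2, and the single GGGTG, the reverse complement of the CACCC box. Capitals in the Klf3 sequence, chr5:64803271-64803520, mark its CACCC and GGGTG matches.
Klf2: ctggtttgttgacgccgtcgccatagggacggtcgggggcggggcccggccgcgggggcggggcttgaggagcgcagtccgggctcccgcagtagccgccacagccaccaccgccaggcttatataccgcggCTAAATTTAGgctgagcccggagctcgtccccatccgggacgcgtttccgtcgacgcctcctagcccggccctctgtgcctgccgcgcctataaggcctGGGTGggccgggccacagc
Klf3: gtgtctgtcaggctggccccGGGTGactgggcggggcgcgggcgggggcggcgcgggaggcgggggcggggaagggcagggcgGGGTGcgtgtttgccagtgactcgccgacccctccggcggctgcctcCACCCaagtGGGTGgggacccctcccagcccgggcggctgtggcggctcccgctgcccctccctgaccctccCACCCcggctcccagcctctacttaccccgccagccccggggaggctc
The Klf2 window held its MEF2 match from 118 bases before the start, a match present in 2.92% of 32851 promoter windows of this length, and 1 CACCC match on the minus strand. The Klf3 window held 5 CACCC matches on either strand, 2 on the plus and 3 on the minus strand, none of them overlapping. This number was reached by 0.667% of all windows, whereas 52.0% held at least 1. G and C made up 71.2% of the Klf2 window and 78.4% of the Klf3 window, against a median of 52.4% over all windows. The table also matched Cxcr4, with 1 CACCC match, and Cd44, with 0. None of the 4 windows held GTAAACA or TGTTTAC, the core of a forkhead site, which 3.17% of all windows hold. These matches describe letters only, and no binding was measured here.

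The libraries held 1600782 to 3153325 counts, with the lowest totals in spleen Id3+ cTR of mice 84 and 87. Levels are counts scaled to library size and composition, in the unit CPM, and changes are log2 differences with their standard error (SE). P-values are from edgeR's quasi-likelihood test, adjusted over all 12445 genes, and a gene is called at an adjusted p under 0.05. Foxp3 averaged 258.7 to 289.6 CPM in the 6 groups. Id3 averaged 71.4 ± 11.3 CPM in lymph node Id3- eTR against 269 ± 22.0 CPM in lymph node Id3+ cTR (SD, n = 3 each). Among markers of other cells, the summed level of 10 erythroid and platelet genes ran from 31.6 to 134.8 CPM in spleen Id3- eTR, 10.9 to 146.9 in spleen Id3+ eTR and 192 to 324 in spleen Id3+ cTR. It did not pass 11.7 CPM in lymph node libraries. Summed CD8 T cell and NK cell markers were, in the lymph node, 240 to 338 CPM in Id3- eTR, 187 to 416 in Id3+ eTR, and, in Id3+ cTR, 88.6 to 137. In the spleen they were 372 to 394 CPM in Id3- eTR, 131 to 170.2 in Id3+ eTR, and, in Id3+ cTR, 93.1 to 178, with Ncr1 at 0 in all libraries. Summed myeloid and dendritic markers were, in the lymph node, 328 to 364 CPM in Id3- eTR, 216 to 459 in Id3+ eTR, and, in Id3+ cTR, 141 to 167. In the spleen they were 247 to 300.4 CPM in Id3- eTR, 154 to 259.6 in Id3+ eTR, and, in Id3+ cTR, 137 to 265, with S100a8 at 0 in all libraries. Of 10 stromal and endothelial genes, 7 were at 0 in all libraries. The summed level of this list rose from Id3- eTR through Id3+ eTR to Id3+ cTR, without overlap in either tissue. By population in that order, lymph node sums were 64.9 to 79.4, 115.9 to 152 and 200.6 to 291.8 CPM. Spleen sums were 76.6 to 110.6, 171.4 to 189.6 and 281.5 to 345.2 CPM. In Id3+ cTR of each tissue only 1 of the 10 genes had reads, so the sum there was the level of that gene alone. In the effector groups 2 or 3 of the 10 had reads. The part of these markers in the results was not tested. For 3 libraries that stand apart, spleen Id3+ eTR of mouse 84 by its counting variance and spleen Id3+ cTR of mice 84 and 87 by their depth, results of the 6 genes without them are given where a call ended. Without them spleen Id3+ cTR kept only the library of mouse 86, and spleen Id3+ eTR those of mice 86 and 87. Whether a call ended through these libraries or through the smaller groups was not tested.

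**Figure D1:**
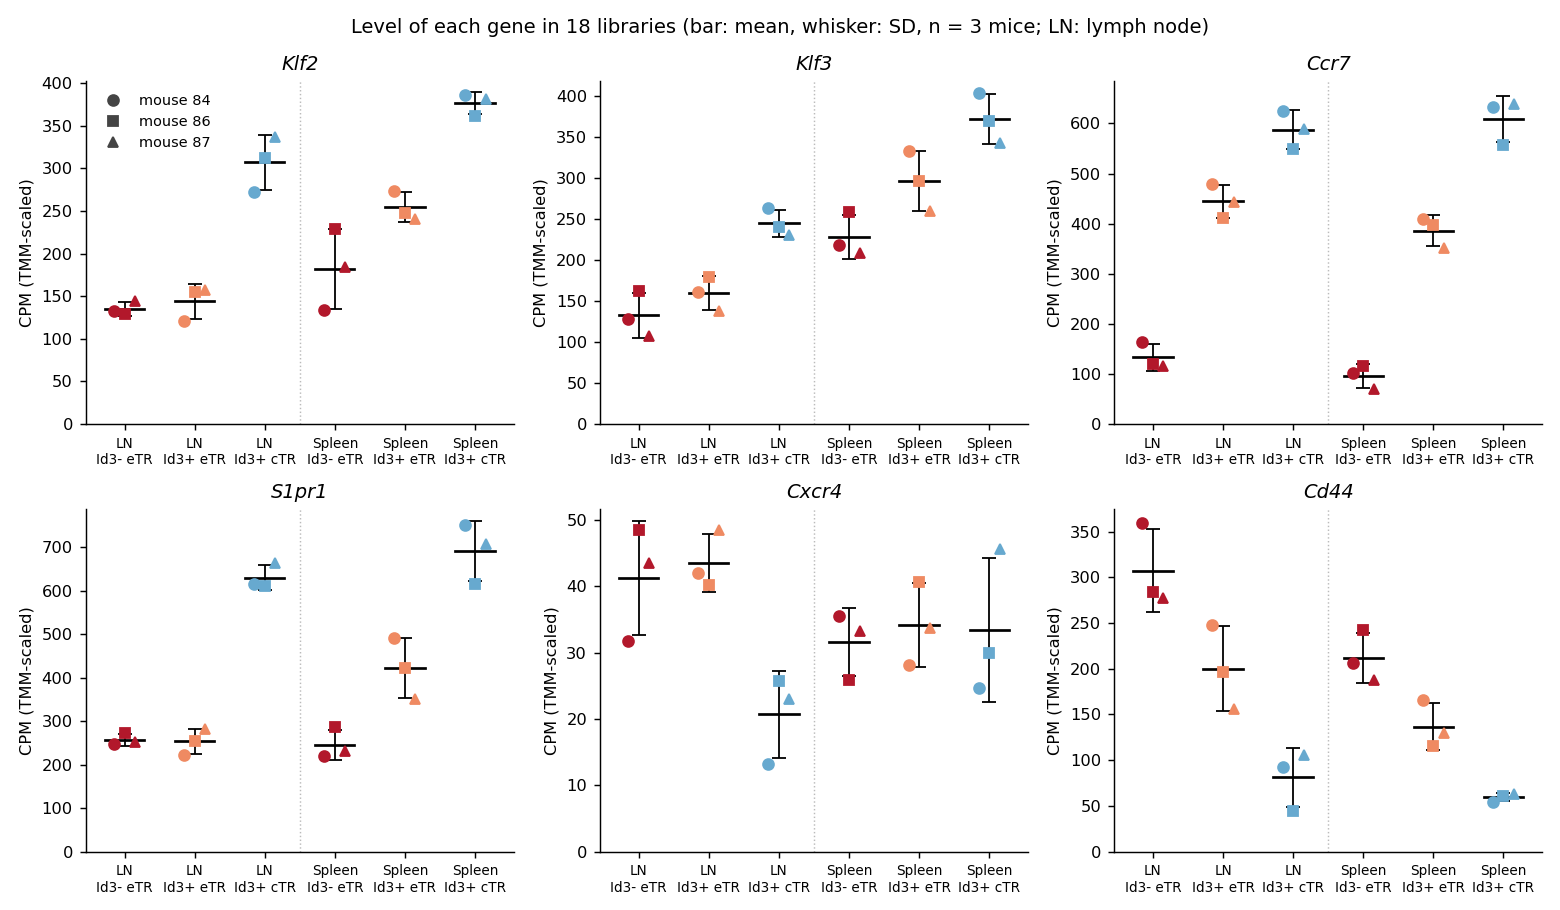
Normalised read counts (CPM, linear axis from 0) of the 6 genes by group, with 1 point per mouse, a line at the mean and whiskers of 1 SD. Klf2, Klf3, S1pr1 and Ccr7 stand highest in Id3+ cTR of each tissue, Cd44 stands lowest there, and Cxcr4 is low in lymph node Id3+ cTR.

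In Id3- eTR of the lymph node, Klf2, Klf3, S1pr1 and Ccr7 fell and Cxcr4 rose relative to Id3+ cTR, so that all 5 genes outside the sort passed the test, where 12.9% of all genes did. In the spleen 4 of 5 did, all lower, where 12.3% of all genes did and 5.09% were lower. Between Id3+ eTR and Id3+ cTR, 4 of 5 were called in the lymph node, where 5.66% of all genes were, and 3 of 5 in the spleen, where 4.32% were. Between Id3- eTR and Id3+ eTR, 1 of 5 was called in the lymph node and 2 of 5 in the spleen, where 2.62% and 3.28% of all genes were. The first 2 contrasts of each tissue share their Id3+ cTR libraries. Cd44 was part of the sort and is described without a population test.

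In mice 84, 86 and 87, in that order here and for the other genes, Klf2 had 133, 129 and 145 CPM in lymph node Id3- eTR, 120.4, 155 and 157 CPM in Id3+ eTR, and 272.5, 312 and 337 CPM in Id3+ cTR. In the spleen it had 133.5, 228 and 184 CPM in Id3- eTR, 274, 248 and 241 CPM in Id3+ eTR, and 386, 362 and 381 CPM in Id3+ cTR. In both tissues every Id3+ cTR library lay above every effector library, and in the lymph node both effector groups overlapped. Lymph node Klf2 was 2.27-fold lower in Id3- eTR than in Id3+ cTR, a log2 change of -1.18 ± 0.15 (SE, adjusted p = 4.6e-05). It was 2.13-fold lower in Id3+ eTR than in Id3+ cTR, at -1.09 ± 0.15 (adjusted p = 0.000281). The 2 effector populations of the lymph node differed by -0.09 ± 0.16 (adjusted p = 0.901). In the spleen the change was -1.05 ± 0.15 in Id3- eTR (adjusted p = 0.000163) and -0.56 ± 0.15 in Id3+ eTR (adjusted p = 0.0431), both against Id3+ cTR. Each of these 4 called changes had the same sign in 3 of 3 mice. Spleen Id3- eTR lay below spleen Id3+ eTR in 3 of 3 mice without overlap, yet the change of -0.49 ± 0.15 did not pass (adjusted p = 0.0979). It passed with spleen Id3- eTR of mouse 86 left out (adjusted p = 0.0189), and DESeq2 called it at an adjusted p that rounds to 0.05. The spleen call of Id3+ eTR against Id3+ cTR was lost without any 1 of its 6 libraries. Its adjusted p was 0.0691, 0.092 and 0.107 with Id3+ eTR of mouse 84, 86 or 87 left out, and 0.134, 0.0715 and 0.13 with Id3+ cTR of mouse 84, 86 or 87 left out. It was 0.464 without the 3 libraries that stand apart.

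Klf3, the CACCC-binding repressor, was also lower in effector than in central cells, and every spleen group had more of it than its lymph node counterpart. It had 128.1, 162 and 108 CPM in lymph node Id3- eTR, 161.5, 179.7 and 138 CPM in Id3+ eTR and 263.5, 241 and 230.4 CPM in Id3+ cTR. In the spleen it had 218, 259 and 208 CPM in Id3- eTR, 334, 297 and 259.6 CPM in Id3+ eTR and 404, 370.0 and 343 CPM in Id3+ cTR. All lymph node effector libraries lay below all lymph node Id3+ cTR libraries, and spleen Id3+ eTR and spleen Id3- eTR both reached into the range of lymph node Id3+ cTR. Id3- eTR were lower than Id3+ cTR with a log2 change of -0.88 ± 0.15 in the lymph node (adjusted p = 0.000474) and of -0.71 ± 0.14 in the spleen (adjusted p = 0.003). The spleen call was lost without the 3 libraries that stand apart (0.0554). Id3+ eTR were lower than Id3+ cTR in the lymph node, at -0.62 ± 0.15 (adjusted p = 0.0152), and differed by -0.33 ± 0.14 in the spleen (adjusted p = 0.211). The lymph node call in Id3+ eTR was lost when Id3+ eTR of mouse 84 (0.0503) or 87 (0.103), or Id3+ cTR of mouse 84 (0.0812) or 86 (0.0507), was left out. Between Id3- eTR and Id3+ eTR the changes of -0.27 ± 0.15 in the lymph node (adjusted p = 0.487) and -0.38 ± 0.14 in the spleen (adjusted p = 0.175) did not pass. The annotation has Gm20033 on the opposite strand over Klf3, and no source states that the kit marks strand, so reads of the 2 cannot be told apart.

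S1pr1, the egress receptor, had 247, 273 and 252 CPM in lymph node Id3- eTR, 224, 255.8 and 282 CPM in Id3+ eTR and 616, 611 and 663.5 CPM in Id3+ cTR. In the spleen it had 219.8, 286 and 232.5 CPM in Id3- eTR, 491, 423 and 352 CPM in Id3+ eTR and 752, 616 and 707 CPM in Id3+ cTR. In the lymph node the ranges of Id3+ eTR and Id3- eTR overlapped, and spleen Id3+ eTR lay between the other 2 spleen groups without overlap with either. Lymph node Id3- eTR were 2.45-fold lower than Id3+ cTR (log2 -1.29 ± 0.13, adjusted p = 2.4e-06) and lymph node Id3+ eTR 2.48-fold lower (log2 -1.31 ± 0.13, adjusted p = 6.16e-06). The 2 effector groups differed by 0.02 ± 0.13 (adjusted p = 0.983). In the spleen Id3- eTR were 2.81-fold lower than Id3+ cTR (log2 -1.49 ± 0.13, adjusted p = 7.05e-07) and 1.72-fold lower than Id3+ eTR (log2 -0.78 ± 0.13, adjusted p = 0.00166). Spleen Id3+ eTR were 1.64-fold lower than Id3+ cTR (log2 -0.71 ± 0.13, adjusted p = 0.00362), a call lost without the 3 libraries that stand apart (0.114).

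Ccr7, the receptor for homing to lymph nodes and T cell zones, separated Id3- eTR from both Id3+ populations. It had 165, 119 and 115 CPM in lymph node Id3- eTR, 478, 412 and 443 CPM in Id3+ eTR and 626, 548 and 590 CPM in Id3+ cTR. In the spleen it had 102.5, 115 and 69.5 CPM in Id3- eTR, 410.1, 397 and 351 CPM in Id3+ eTR and 633, 557 and 639 CPM in Id3+ cTR. The ranges of the populations did not overlap in either tissue. Id3- eTR were 3.34-fold lower than Id3+ eTR in the lymph node (log2 -1.74 ± 0.16, adjusted p = 5.44e-06) and 4.05-fold lower in the spleen (log2 -2.02 ± 0.16, adjusted p = 1.34e-06). Against Id3+ cTR, Id3- eTR were 4.42-fold lower in the lymph node (adjusted p = 1.21e-07) and 6.39-fold lower in the spleen (adjusted p = 1.23e-08). Id3+ eTR differed from Id3+ cTR by -0.40 ± 0.15 in the lymph node, which did not pass (adjusted p = 0.153). In the spleen they were lower, at -0.66 ± 0.15 (adjusted p = 0.0194). This spleen call was lost when Id3+ cTR of mouse 84 (0.0733) or 87 (0.084), Id3+ eTR of mouse 87 (0.0679) or the 3 libraries that stand apart (0.446) were left out.

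Cxcr4, the CXCL12 receptor, had the smallest counts of the 6 genes, 35 to 140 reads per library. It had 31.8, 48.6 and 43.5 CPM in lymph node Id3- eTR, 42.0, 40.2 and 48.5 CPM in Id3+ eTR and 13.3, 25.8 and 23.1 CPM in Id3+ cTR. The lymph node Id3+ cTR libraries lay below all other lymph node libraries, whereas the 3 spleen groups, at 25.9 to 35.6 CPM in Id3- eTR, 28.1 to 40.7 CPM in Id3+ eTR and 24.7 to 45.6 CPM in Id3+ cTR, overlapped. Lymph node Id3- eTR were 1.99-fold higher than Id3+ cTR (log2 0.99 ± 0.29, adjusted p = 0.0314) and Id3+ eTR 2.10-fold higher (log2 1.07 ± 0.29, adjusted p = 0.0381). In the spleen Id3- eTR differed from Id3+ cTR by -0.08 ± 0.29 (adjusted p = 0.913) and Id3+ eTR by 0.03 ± 0.29 (adjusted p = 0.97). The summed myeloid and dendritic markers given above were also higher in both lymph node effector groups than in lymph node Id3+ cTR, without overlap, and their part in the Cxcr4 result was not tested. The call in Id3- eTR was lost with no filter on low counts (0.0577) and when Id3- eTR of mouse 86 (0.11) or 87 (0.0816), or Id3+ cTR of mouse 84 (0.135) or 87 (0.0608), was left out. The call in Id3+ eTR was lost with no filter (0.0653) and when Id3+ eTR of mouse 84 (0.084), 86 (0.068) or 87 (0.119), or Id3+ cTR of mouse 84 (0.153) or 87 (0.0799), was left out.

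Cd44, the hyaluronan receptor, was highest in Id3- eTR and lowest in Id3+ cTR of each tissue, in a sort that gated both Id3+ populations on CD44 protein. It had 359, 284 and 278 CPM in lymph node Id3- eTR, 248, 196 and 156 CPM in Id3+ eTR and 92.7, 45.0 and 106 CPM in Id3+ cTR. In the spleen it had 206, 242 and 188 CPM in Id3- eTR, 165.5, 115 and 129.8 CPM in Id3+ eTR and 54.6, 61.1 and 62.9 CPM in Id3+ cTR. Id3- eTR, whose label names no CD44 gate, lay above Id3+ eTR without overlap in each tissue.

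Ordered by mean level, Klf2 ran from spleen Id3+ cTR, the highest, through lymph node Id3+ cTR, spleen Id3+ eTR, spleen Id3- eTR and lymph node Id3+ eTR to lymph node Id3- eTR. The ranges of neighbours in that order overlapped between lymph node Id3+ cTR and spleen Id3+ eTR and among the lowest 3 groups. Klf3 had the order spleen Id3+ cTR, spleen Id3+ eTR, lymph node Id3+ cTR, spleen Id3- eTR, lymph node Id3+ eTR and lymph node Id3- eTR, with no overlap between the highest pair or between spleen Id3- eTR and lymph node Id3+ eTR, and overlap of all other neighbours. S1pr1 was highest in spleen and lymph node Id3+ cTR, which overlapped, then in spleen Id3+ eTR, which overlapped neither neighbour, and lowest in lymph node Id3- eTR, lymph node Id3+ eTR and spleen Id3- eTR, which overlapped. Ccr7 was highest in spleen and lymph node Id3+ cTR, which overlapped, followed without overlap by lymph node and then spleen Id3+ eTR, and was lowest in lymph node and spleen Id3- eTR, which overlapped. For Cd44, lymph node Id3- eTR stood above all other groups and lymph node and spleen Id3+ cTR below them. For Cxcr4 only the lowest group, lymph node Id3+ cTR, was clear of its neighbour, and only just. Its highest value was 25.8 CPM, against a lowest value of 25.9 CPM in spleen Id3- eTR. It overlapped spleen Id3+ cTR, which reached down to 24.7 CPM.

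**Figure D2:**
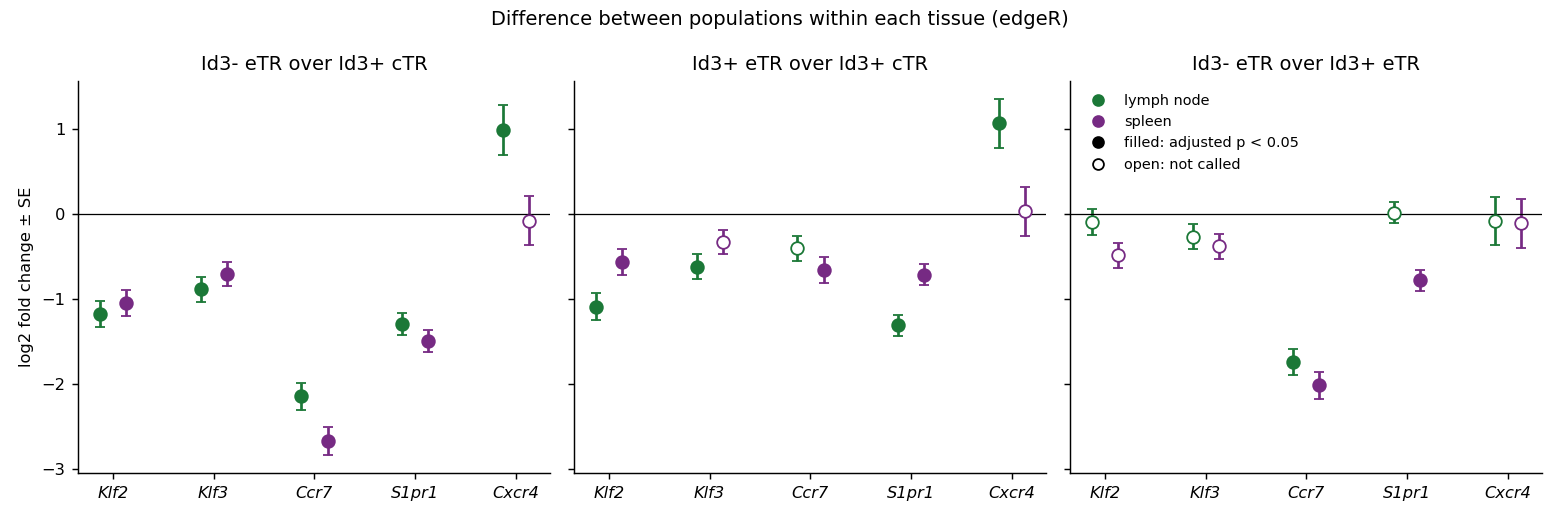
Log2 change of each gene outside the sort in 3 panels, 1 for each population contrast, by tissue, with points at the edgeR estimate, bars of 1 SE and filled points where the adjusted p is under 0.05. Ccr7 changes most between Id3- eTR and Id3+ eTR, and in the lymph node Klf2 and S1pr1 stand near 0 in that contrast.

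The position of Id3+ eTR between the other 2 populations differed by gene. The share of the log2 distance from Id3+ cTR to Id3- eTR that Id3+ eTR had covered was computed within each mouse for genes called between those 2 populations, which left out spleen Cxcr4. In the lymph node it averaged 94.4% ± 18 for Klf2, 102% ± 12.3 for S1pr1, 106% ± 32.6 for Cxcr4, 70.0% ± 3.6 for Klf3 and 18.8% ± 1.3 for Ccr7 (SD, n = 3 each). Ccr7, at 17.6% to 20.2%, stood apart from the other genes in every mouse, whose lowest value was 67.9%. In the spleen the share was 59.2% ± 25.2 for Klf2, 48.8% ± 14.0 for S1pr1, 49.6% ± 16.4 for Klf3 and 24.2% ± 2.79 for Ccr7 (SD, n = 3 each). Spleen Ccr7, at 21.5% to 27.1%, lay below all other spleen values, the lowest of which was 30.9%. The tissues did not overlap for S1pr1, at 88.3% to 111% in lymph node and 34.7% to 62.7% in spleen. Nor did they for Klf3, at 67.9% to 74.2% in lymph node and 30.9% to 61.9% in spleen. Ccr7 was also without overlap but higher in spleen, at 17.6% to 20.2% in lymph node and 21.5% to 27.1% in spleen. Klf2 overlapped, at 78.7% to 114% in lymph node and 32.3% to 82.2% in spleen.

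**Figure D3:**
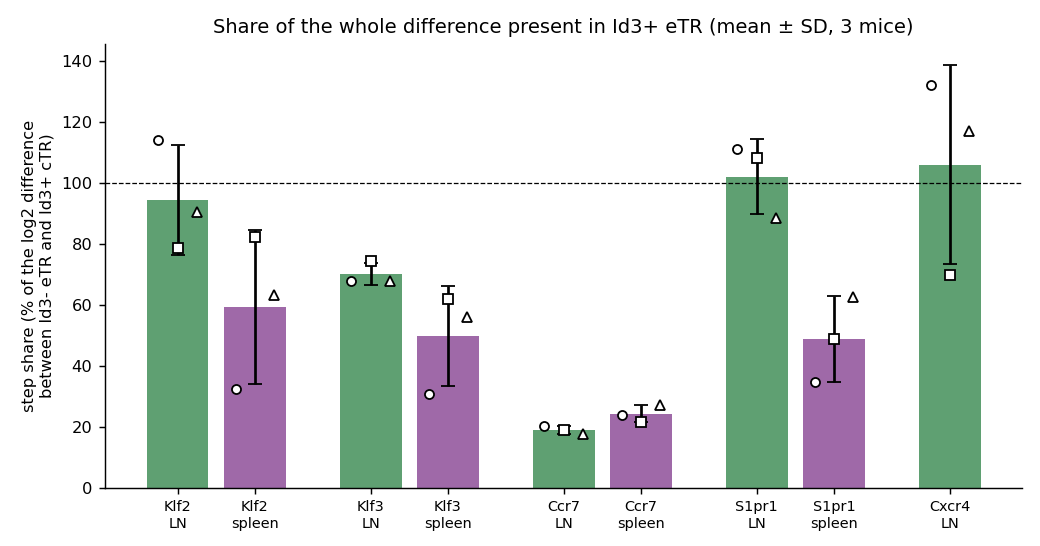
Share of the log2 distance from Id3+ cTR to Id3- eTR covered by Id3+ eTR (percent, bars from 0). Bars are means, whiskers SD and points the 3 mice, for lymph node and spleen. Ccr7 stays at 17.6% to 27.1% in both tissues, whereas lymph node S1pr1 and Klf2 lie around 100%.

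Whether a population change differed between tissues was tested by the interaction in the same fit. None of the 5 genes outside the sort passed in any of the 3 interactions, in which 0.0241%, 0% and 0% of all genes did. With edgeR the unadjusted p was under 0.05 for 2 genes in Id3- eTR against Id3+ cTR, 3 in Id3+ eTR against Id3+ cTR and 1 in Id3- eTR against Id3+ eTR, and DESeq2 called 0, 0 and 1. That 1 was S1pr1, for which the change from Id3+ eTR in lymph node Id3- eTR exceeded that in spleen Id3- eTR by 0.80 ± 0.18 (adjusted p = 0.204 with edgeR and 0.00958 with DESeq2). For Id3+ eTR against Id3+ cTR the lymph node minus spleen difference was -0.60 ± 0.18 for S1pr1 (adjusted p = 0.36), -0.52 ± 0.21 for Klf2 (adjusted p = 0.467) and 1.04 ± 0.41 for Cxcr4 (adjusted p = 0.459). For Id3- eTR against Id3+ cTR it was 1.07 ± 0.41 for Cxcr4 (adjusted p = 0.671) and 0.53 ± 0.22 for Ccr7 (adjusted p = 0.692).

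Within 1 population, Klf3 was called lower in the lymph node than in the spleen in Id3- eTR and Id3+ eTR, and Klf2 and S1pr1 were in Id3+ eTR. Of the 6 genes, 1 was called in Id3- eTR, where 0.305% of all genes were, 3 in Id3+ eTR, where 0.289% were, and 0 in Id3+ cTR, where 0.00804% were. Beside that 0 from edgeR, 2 of the 6 had an unadjusted p under 0.05 and DESeq2 called 1, Klf3. Lymph node Id3+ eTR had 1.76-fold less Klf2 than spleen Id3+ eTR (log2 -0.82 ± 0.15, adjusted p = 0.0397). They also had 1.86-fold less Klf3 (log2 -0.90 ± 0.15, adjusted p = 0.0183) and 1.66-fold less S1pr1 (log2 -0.73 ± 0.13, adjusted p = 0.0261), each in 3 of 3 mice and without overlap of the groups. Lymph node Id3- eTR had 1.72-fold less Klf3 than spleen Id3- eTR (log2 -0.78 ± 0.15, adjusted p = 0.029), while Klf2 differed by -0.42 ± 0.15 (adjusted p = 0.431) and S1pr1 by 0.07 ± 0.13 (adjusted p = 0.994). In Id3+ cTR the lymph node minus spleen difference was -0.60 ± 0.14 for Klf3 (adjusted p = 0.266, and 0.0254 with DESeq2), -0.29 ± 0.15 for Klf2 (adjusted p = 0.67) and -0.13 ± 0.12 for S1pr1 (adjusted p = 0.868). Cd44, whose gates were the same in both tissues as far as the labels say, was higher in the lymph node in 8 of 9 pairs. The differences were 0.54 ± 0.24 in Id3- eTR (adjusted p = 0.578), 0.54 ± 0.24 in Id3+ eTR (adjusted p = 0.38) and 0.44 ± 0.26 in Id3+ cTR (adjusted p = 0.715), and none passed. The 3 calls in Id3+ eTR were all lost without the 3 libraries that stand apart (adjusted p = 0.15 for Klf2, 0.102 for Klf3 and 0.103 for S1pr1). Klf2 was also lost with 1 library left out, namely spleen Id3+ eTR of mouse 84 (0.111) or 86 (0.072) or lymph node Id3+ eTR of mouse 84 (0.179), 86 (0.0765) or 87 (0.0898). Klf3 was lost with the removal of spleen Id3+ eTR of mouse 84 (0.0738) or 86 (0.0549) or lymph node Id3+ eTR of mouse 84 (0.0886) or 87 (0.0898), and S1pr1 with that of spleen Id3+ eTR of mouse 84 (0.0865) or 86 (0.0693) or lymph node Id3+ eTR of mouse 84 (0.155) or 86 (0.0765). The Klf3 call in Id3- eTR was lost with the removal of spleen Id3- eTR of mouse 84 (0.066) or 86 (0.12), or of lymph node Id3- eTR of mouse 84 (0.133) or 87 (0.142).

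Averaged over the 3 populations, a contrast chosen after seeing the data, lymph node cells had less Klf3 (log2 -0.76 ± 0.08, adjusted p = 0.000195) and less Klf2 (log2 -0.51 ± 0.09, adjusted p = 0.00732) than spleen cells, each lower in 9 of 9 pairs of mouse and population. These were 2 of the 6 genes, where 0.924% of all genes were called. The averaged difference was -0.27 ± 0.07 for S1pr1 (adjusted p = 0.105), 0.51 ± 0.14 for Cd44 (adjusted p = 0.11), 0.21 ± 0.09 for Ccr7 (adjusted p = 0.342) and 0.02 ± 0.17 for Cxcr4 (adjusted p = 1.0). S1pr1 passed with DESeq2 (0.0234) and with spleen Id3+ eTR of mouse 87 left out (0.0404). Cd44 passed with DESeq2 (0.0207) and with lymph node Id3+ cTR of mouse 86 left out (0.0125), and the Klf2 call was lost without the 3 libraries that stand apart (0.0833). The erythroid and platelet markers given above also differed between the tissues in all 3 populations, and other marker lists, B cells among them, did in some. The part of all these markers in these differences was not tested.

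**Figure D4:**
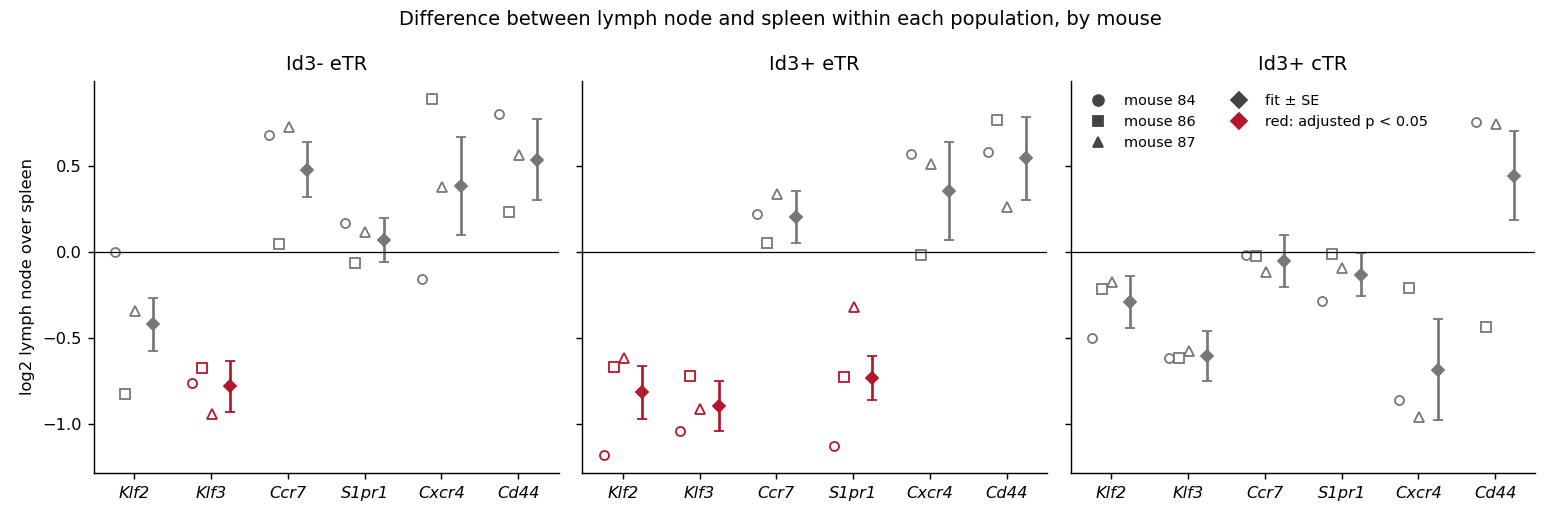
Lymph node minus spleen difference of each gene on the log2 scale, in 3 panels by population, with 1 open point per mouse and a diamond with bars for the edgeR estimate and its SE, red where the adjusted p is under 0.05. Klf2 and Klf3 lie below 0 in 9 of 9 pairs, Klf2 of mouse 84 in Id3- eTR only just, and Cxcr4 points lie on both sides of 0.

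The variance of log2 CPM over the 18 libraries was divided between population, tissue, their interaction and the spread within groups. Population accounted for 95.3% of it for Ccr7, 84.6% for S1pr1, 82.1% for Cd44, 68.7% for Klf2 and 38.7% for Klf3. Tissue accounted for 51.8% for Klf3 and 19.2% for Klf2, but 4.15% for S1pr1 and 0.983% for Ccr7. Cxcr4 had 37.9% within groups, the largest such share of the 6 genes, with 32.0% for population and 0.0267% for tissue. The interaction accounted for 30.1% for Cxcr4, 7.02% for S1pr1, 3.97% for Klf2, 1.29% for Klf3, 1.05% for Ccr7 and 0.235% for Cd44.

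Klf2 and its target S1pr1 followed each other closely. Their log2 levels had a Pearson r of 0.941 over the 18 libraries, which share 3 mice and 6 groups, and their deviations from the group means had an r of 0.697. For Klf2 and Klf3 these were 0.85 and 0.07, and for Klf2 and Ccr7 0.63 and -0.0209, so the likeness of those pairs lay between groups. Apart from Klf2 and S1pr1, the r of deviations among the 6 genes ran from -0.47 for Cxcr4 and Cd44 to 0.459 for Ccr7 and Cd44. Of 8844 genes compared by level, Klf2 ranked 8 in likeness to S1pr1. The log2 ratio of S1pr1 to Klf2 reads was 0.923 ± 0.146 in Id3- eTR, 0.817 ± 0.0892 in Id3+ eTR and 1.04 ± 0.117 in Id3+ cTR of the lymph node, and 0.458 ± 0.224 in Id3- eTR, 0.718 ± 0.153 in Id3+ eTR and 0.872 ± 0.0991 in Id3+ cTR of the spleen (SD, n = 3 each). Spleen Id3- eTR thus had the lowest ratio, where the Klf2 mean was above that of lymph node Id3- eTR and the S1pr1 mean was not.

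**Figure D5:**
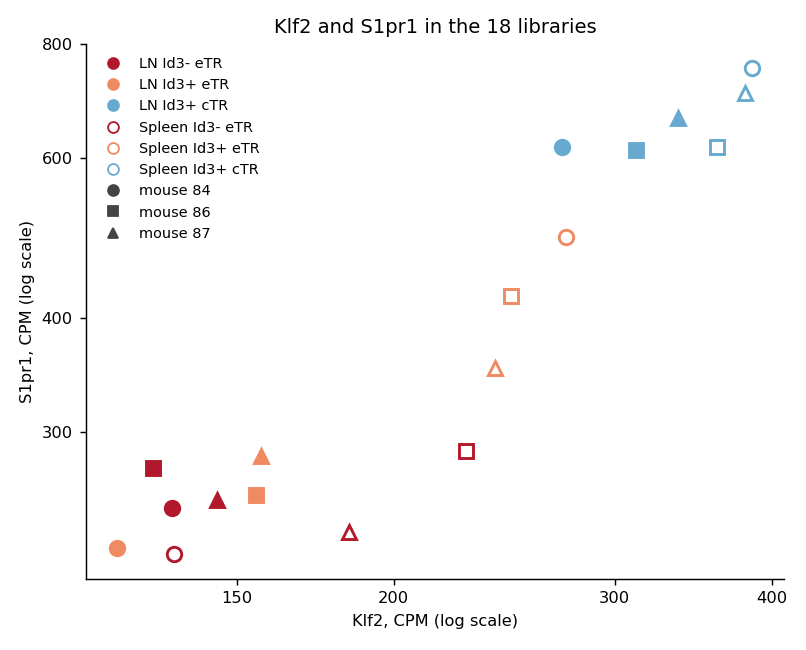
Normalised read counts (CPM) of S1pr1 against those of Klf2, both on log axes, with 1 point per library. Colour marks the population, filled points the lymph node, open points the spleen, and shape the mouse. Id3+ cTR libraries of both tissues lie at the upper right, and spleen Id3+ eTR lie between them and the other effector libraries.

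Among 8844 genes compared over the 18 libraries, the levels most like Klf2 were those of Rasgrp2 (r = 0.956), an activator of Rap GTPases in lymphocyte adhesion, Ablim1 (0.955), Klf13 (0.942), S1pr1 (0.941) and Ugcg (0.933). The most unlike were Syngr2 (-0.948), Batf (-0.941), a transcription factor of effector T cells, and Casp4 (-0.938). Rasgrp2 averaged 85.9 CPM in Id3- eTR, 75.4 in Id3+ eTR and 199 in Id3+ cTR of the lymph node, and 108 CPM in Id3- eTR, 149 in Id3+ eTR and 271.5 in Id3+ cTR of the spleen. The genes most like S1pr1 were Stk38 (0.973), Satb1 (0.971), a chromatin organiser of T cells, and Slc17a9 (0.964). Those most like Ccr7 were Arhgap20 (0.972), Igfbp4 (0.972) and Bcl2 (0.962), the survival factor, and those most like Klf3 were Sqle (0.905), Gimap6 (0.901) and Kif21b (0.886). For Cxcr4 they were Ssbp3 (0.846), Apoe (0.814) and Grhl1 (0.799), and for Cd44 Arhgap31 (0.96), Fam129a (0.948) and Crmp1 (0.947). These values describe patterns over groups and carry no test.

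The wider KLF family and the pathways around these genes were read in Id3- eTR against Id3+ cTR, in which 8.26% of all genes were higher and 4.68% lower in the lymph node, and 7.17% higher and 5.09% lower in the spleen. Values are given mainly for listed genes whose call held under every alternative run, a choice made after their values were seen. Of 9 other KLF genes tested, 2 rose and 2 fell in the lymph node, and 0 rose and 2 fell in the spleen, where 2 were higher at an unadjusted p under 0.05 with edgeR and DESeq2 called 0 higher. Klf10, one of those that rose, lost its lymph node call in 6 of 6 fits with 1 library left out (adjusted p = 0.0642 to 0.117). Spleen Klf13 lost its call in 2 of 6 (up to 0.0739) and without the 3 libraries that stand apart (0.135). Their list had a median log2 change of 0.49 in the lymph node and 0.33 in the spleen, against medians of 0.0040 and 0.0023 over all genes. Klf7 fell to 32.2 ± 1.04 CPM in lymph node Id3- eTR, against 133 ± 6.97 in Id3+ cTR (log2 -2.05 ± 0.23, adjusted p = 8.14e-06), and to 47.5 ± 14.9 in spleen Id3- eTR, against 139 ± 8.26 in Id3+ cTR (adjusted p = 0.000137). Klf4, known to restrain T cell proliferation, rose to 31.9 ± 1.74 CPM in lymph node Id3- eTR, against 7.17 ± 4.72 in Id3+ cTR (adjusted p = 0.00282), and had 15.6 ± 0.78 CPM in spleen Id3- eTR against 12.5 ± 2.70 in Id3+ cTR (adjusted p = 0.71). Klf13 fell to 139 ± 2.54 CPM in lymph node Id3- eTR, against 200.4 ± 6.94 in Id3+ cTR (adjusted p = 0.00186). Klf6 was lower in the lymph node than in the spleen over the 3 populations (log2 -0.42 ± 0.07, adjusted p = 0.00627, 9 of 9 pairs), as Klf2 and Klf3 were.

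Of 19 genes that act upstream of Klf2, 0 rose and 3 fell in lymph node Id3- eTR and 0 rose and 6 fell in spleen Id3- eTR relative to Id3+ cTR, with a median log2 change of -0.18 in both. The list mixes Foxo1, whose product maintains KLF2, with genes of PI3K, which removes it. Its counts therefore give no single direction for Klf2. With edgeR, 0 were higher at an unadjusted p under 0.05 in either tissue, and DESeq2 called 0 higher. Pik3ip1, an inhibitor of PI3K, fell to 102 ± 13.5 CPM in lymph node Id3- eTR, against 191 ± 25.2 in Id3+ cTR (adjusted p = 0.000644), and to 108 ± 18.1 in spleen Id3- eTR, against 236 ± 18.4 in Id3+ cTR (adjusted p = 0.000104). Pik3cd, the PI3K catalytic subunit of lymphocytes, had 241 ± 21.7 CPM in lymph node Id3- eTR against 411 ± 35.6 in Id3+ cTR (adjusted p = 0.00942). Kat2b, an acetyltransferase, had 77.7 ± 4.86 CPM in spleen Id3- eTR against 159 ± 16.9 in Id3+ cTR (adjusted p = 0.00218). Both were called lower in the other tissue too, but these calls were lost with single libraries left out. Spleen Pik3cd had an adjusted p of 0.0596, 0.052 or 0.0573 when the Id3- eTR library of mouse 84, 86 or 87 was left out, and of 0.066 when that of Id3+ cTR of mouse 84 was. Lymph node Kat2b had 0.07 to 0.208 without any 1 library but Id3+ cTR of mouse 86. Foxo1, Pik3r1 and Smurf1 were also called lower in spleen Id3- eTR, and none of them was called in lymph node Id3- eTR. The spleen Foxo1 call (adjusted p = 8.57e-05) held in 6 of 6 fits with 1 library left out. Smurf1 was lost in 6 of 6 fits with 1 library left out (0.0666 to 0.177), and Pik3r1 in 1 of 6 (0.0653) and without the 3 libraries that stand apart (0.109).

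Next came 9 other genes listed as targets of KLF2 or FOXO1 or, like Cxcr3, as raised without KLF2. Of these, 3 rose and 0 fell in lymph node Id3- eTR, where 1 was lower at an unadjusted p under 0.05 with edgeR and DESeq2 called 0 lower. In spleen Id3- eTR 2 rose and 1 fell. Il7r, the IL-7 receptor chain, rose to 524.5 ± 88.5 CPM in lymph node Id3- eTR, against 258.6 ± 53.9 in Id3+ cTR (adjusted p = 0.00156). This call held in 6 of 6 fits with 1 library left out. In the spleen Il7r was not called, with 578 ± 80.6 CPM in Id3- eTR against 387 ± 65.1 in Id3+ cTR. Cdkn1a, a cell cycle inhibitor that rose in both tissues, lost its lymph node call in 3 of 6 fits with 1 library left out (up to 0.097) and its spleen call without the 3 libraries that stand apart (0.0682). Cxcr3, a chemokine receptor that is raised in mouse T cells lacking KLF2, rose to 288 ± 39.5 CPM in lymph node Id3- eTR, against 4.46 ± 4.55 in Id3+ cTR (log2 6.02 ± 0.40, adjusted p = 3.65e-08, with a log2 change of 6.99 if the mouse 84 library of Id3+ cTR is left out). In the spleen it rose to 435 ± 9.99 CPM in Id3- eTR, against 4.79 ± 1.82 in Id3+ cTR (adjusted p = 2.41e-08). Il6ra, the receptor chain for IL-6, fell to 47.2 ± 15.3 CPM in spleen Id3- eTR, against 129 ± 23.7 in Id3+ cTR (adjusted p = 0.000325), and differed by -0.51 in the lymph node (adjusted p = 0.153). Of 7 partners and targets of KLF3, 1 rose and 1 fell in lymph node Id3- eTR, and 1 rose and 0 fell in spleen Id3- eTR, where 2 were lower at an unadjusted p under 0.05 with edgeR and DESeq2 called 2 lower. The gene that fell was Hdac2, a histone deacetylase, whose call was lost in 5 of 6 fits with 1 library left out (up to 0.2), with RLE scaling (0.0586) and with no filter (0.0653). The gene called higher in both tissues was Lgals3, the galectin-3 gene that KLF3 represses in mouse cells, with 103 ± 6.62 CPM in lymph node Id3- eTR against 1.5 ± 2.31 in Id3+ cTR (adjusted p = 0.000283). Its fitted lymph node log2 change of 6.11 was 8.87 without Id3+ cTR of mouse 84. In spleen Id3- eTR it had 46.6 ± 23.2 CPM against 0 reads in all Id3+ cTR libraries, at least 85.9-fold higher with a floor of 3 reads over the group (adjusted p = 0.000479). Myeloid cells also express Lgals3, and the part of the myeloid and dendritic markers given above in this result was not tested.

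Of 10 other genes of sphingosine-1-phosphate receptors and metabolism, 1 rose in lymph node Id3- eTR and 0 in spleen Id3- eTR, where 1 was higher at an unadjusted p under 0.05 with edgeR and DESeq2 called 0. The gene that rose was S1pr2, a receptor that restrains migration, with 46.0 ± 7.26 CPM in lymph node Id3- eTR against 8.60 ± 8.09 in Id3+ cTR (log2 2.40 ± 0.71, adjusted p = 0.0349). Its call was lost without any 1 library but Id3+ cTR of mouse 86 (0.0537 to 0.115), without which the log2 change was 3.39. S1pr3 and S1pr5 had 5 and 7 reads in all libraries and were not tested. Of 16 other genes of CCR7 signalling, 1 rose and 0 fell in lymph node Id3- eTR, where with edgeR 0 were lower at an unadjusted p under 0.05 and DESeq2 called 0 lower. In spleen Id3- eTR 0 rose and 3 fell. There, with edgeR, 0 were higher at an unadjusted p under 0.05 and DESeq2 called 0 higher. No call of this list held under every alternative run. Rap1a (adjusted p = 0.029) was lost without any 1 library of the contrast but lymph node Id3- eTR of mouse 87 (0.068 to 0.0959). Without the 3 libraries that stand apart, Coro1a, Rhoh and Stk4 had adjusted p-values of 0.627, 0.786 and 0.281.

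Of 13 other genes of CXCR4 signalling, 4 rose and 0 fell in lymph node Id3- eTR, where 1 was lower at an unadjusted p under 0.05 with edgeR and with DESeq2, and 3 rose and 3 fell in spleen Id3- eTR. With any 1 library left out, 3 of the 4 lymph node calls held, and in the spleen 1 of the 3 higher and 0 of the 3 lower ones did. Spleen Grk6, a kinase of G protein-coupled receptors, and Rgs2 each lost their call in 6 of 6 such fits (0.0535 to 0.129 for Grk6 and 0.0732 to 0.117 for Rgs2). Rgs1 lost it in 4 of 6 in the lymph node and 2 of 6 in the spleen, Rgs10 in 2 of 6 and Rgs19 in 3 of 6. Rgs16, which dampens chemokine receptor signalling, rose to 184 ± 22.9 CPM in lymph node Id3- eTR, against 45.8 ± 20.4 in Id3+ cTR (adjusted p = 0.000126), and to 102 ± 26.8 in spleen Id3- eTR, against 21.0 ± 5.84 in Id3+ cTR (adjusted p = 0.000107). Cd74, the invariant chain and a receptor for MIF, rose to 351 ± 43.8 CPM in lymph node Id3- eTR, against 185 ± 31.7 in Id3+ cTR (adjusted p = 0.000521), and differed by 0.19 in the spleen (adjusted p = 0.494). Cd74 is also expressed by myeloid, dendritic and B cells. The summed myeloid and dendritic markers given above were higher in lymph node Id3- eTR than in Id3+ cTR without overlap, and the summed B cell markers, Cd74 among them, were 1215 to 1507 CPM in lymph node Id3- eTR and 878 to 1084 in Id3+ cTR. The part of both in the result was not tested. Of 11 other ligands and linkers of CD44, 1 rose and 0 fell in lymph node Id3- eTR, where 2 were lower at an unadjusted p under 0.05 with edgeR and DESeq2 called 0 lower. In spleen Id3- eTR 0 rose and 3 fell, and 1 was higher at an unadjusted p under 0.05 with edgeR and DESeq2 called 0 higher. In the spleen 2 of the 3 lower calls held with any 1 library left out. Srgn, the granule proteoglycan serglycin, rose to 474 ± 10.5 CPM in lymph node Id3- eTR, against 302 ± 13.2 in Id3+ cTR (adjusted p = 0.00152). Ezr, a linker of CD44 to actin, fell to 283 ± 33.3 CPM in spleen Id3- eTR, against 461 ± 41.9 in Id3+ cTR (adjusted p = 0.000824). In the lymph node Ezr differed by -0.35 (adjusted p = 0.0654), which passed with the mouse as a block (0.0463).

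Of 11 other genes of lymph node entry and adhesion, 3 rose and 3 fell in lymph node Id3- eTR and 4 rose and 3 fell in spleen Id3- eTR. With any 1 library left out, all 6 lymph node calls held, and 3 of the 4 higher and 1 of the 3 lower spleen calls did. Ccr6, the CCL20 receptor, rose to 245 ± 53.7 CPM in lymph node Id3- eTR, against 16.7 ± 7.28 in Id3+ cTR (adjusted p = 3.44e-07). Itga6, a laminin receptor chain, fell to 150.2 ± 42.0 CPM in lymph node Id3- eTR, against 278 ± 29.1 in Id3+ cTR (adjusted p = 0.00318). Of 13 genes of tissue retention and egress block, 8 rose and 2 fell in lymph node Id3- eTR and 9 rose and 1 fell in spleen Id3- eTR, with medians of 0.51 and 0.62. With any 1 library left out, 6 of the 8 higher lymph node calls and 6 of the 9 higher spleen calls held. Itgae, the CD103 chain that binds E-cadherin, rose to 742 ± 53.7 CPM in lymph node Id3- eTR, against 23.1 ± 12.5 in Id3+ cTR (adjusted p = 2.4e-06), and to 143 ± 52.7 in spleen Id3- eTR, against 12.5 ± 10.5 in Id3+ cTR (adjusted p = 0.000284). Between the tissues, averaged over the 3 populations, Itga4, an integrin chain, was lower in the lymph node by -1.14 ± 0.07 (adjusted p = 1.11e-07). Itgae was higher by 1.68 ± 0.28 (adjusted p = 0.00598), Rgs16 by 1.02 ± 0.17 (adjusted p = 0.00598) and Rgs2 by 0.48 ± 0.06 (adjusted p = 0.000782), each in 9 of 9 pairs.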

How the data were processed

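RNA of 18 libraries was measured, 3 per group, from polyA RNA of 500 sorted cells each, with the SMART-Seq v4 and a modified Nextera XT kit, per the labels' protocols. The authors deposited whole read counts for 37991 genes and a table of normalized counts (a signal) for 14011. The submitters' processing notes name SAMtools, Picard, FastQC, HTSeq 0.4.1, TopHat and Bowtie. The build was not given in the sources used here. The 108 values of the 6 genes in the normalized signal table were within 0.1% of the deposited count times 1 factor per library, so counts were tested. Symbols were found for 32919 of the 37991 genes.

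Counts were fitted in R 4.3.3 with edgeR 4.0.16 over all 18 libraries (group means, TMM scaling, filterByExpr with a minimum count of 10, quasi-likelihood test, 12 residual degrees of freedom, Benjamini-Hochberg over 12445 genes). Replicates varied with a biological coefficient of variation of 0.294. The median SE of a log2 change was 0.311 in lymph node Id3- eTR against Id3+ cTR. Each SE was derived from the log2 change and its quasi-likelihood test statistic. Log2 CPM used a prior count of 2, with 0.5 as an alternative for the step shares. The fit was checked on simulated data. P-values reflect the spread between the 3 libraries within each group, shared over the 6 groups. The main fit treats the 18 libraries as independent, although they came from 3 mice. The same mice gave all populations, per the labels, and the median correlation of deviations from the group means was 0.0188 for libraries of the same mouse and -0.00673 for others, so the main fit had no block. Alternatives were RLE scaling, no filter, DESeq2 1.42.0, the mouse as a replicate block, each library left out, and, chosen after seeing the data, 3 libraries left out and the average over populations. With those 3 libraries left out, spleen Id3+ cTR held the library of mouse 86 alone and so had no replicate.

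The 6 genes and the gene lists were chosen with earlier results of these data known. One gene is not reported here and enters no list count. All 6 genes are named, with up to 4 called genes per list by the largest mean change in Id3- eTR against Id3+ cTR or a tissue contrast, from which genes whose calls held were preferred after seeing values. Genes like each member were taken by Pearson correlation.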

Additional observations from a re-analysis of the deposited data

Results flagged for a closer look

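None of the 5 genes outside the sort passed the test of a population change that differed between tissues, but 2 genes of the lists around them did. The change of Itga4, an integrin chain, in Id3- eTR against Id3+ cTR was lower in the lymph node than in the spleen by -1.76 ± 0.17 on the log2 scale (interaction, adjusted p = 0.000109). It had 183 ± 28.9 CPM in Id3- eTR and 402 ± 8.93 CPM in Id3+ cTR of the lymph node, and 764 ± 57.3 CPM in Id3- eTR and 493.5 ± 39.7 CPM in Id3+ cTR of the spleen (SD, n = 3 each). For P2rx7, an ATP-gated channel, the same difference was -1.83 ± 0.29 (interaction, adjusted p = 0.038), with 49.9 ± 16.7 CPM in Id3- eTR and 115.5 ± 12.5 CPM in Id3+ cTR of the lymph node, and 199.5 ± 33.6 CPM in Id3- eTR and 129.7 ± 20.9 CPM in Id3+ cTR of the spleen. The P2rx7 call was lost in 10 of 12 fits with 1 library left out (adjusted p = 0.0702 to 0.158) and without the 3 libraries that stand apart (0.266).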

How the results depend on the processing

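For the 6 genes, 60 of 60 results kept their direction and side of the threshold with RLE scaling and with the mouse as a replicate block, under which Klf2 averaged over populations had an adjusted p of 0.00817 and Klf3 of 1.93e-05. With no filter 58 did, with DESeq2 55 (5 gained a call), and without the 3 libraries that stand apart 49 (8 lost a call). Over single libraries left out, 405 values did, 39 lost a call, 3 gained one and 21 changed sign without a call. The block ended Rgs1 and added Grk6 and Ezr among 80 results of listed genes. The cause of these changes was not tested. Depth limits genes of few reads, and Cxcr4 had the fewest of the 6 genes.

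Genes called with DESeq2 were 562 in lymph node Id3- eTR against Id3+ eTR, 1008 in spleen Id3+ eTR against Id3+ cTR, 751 in spleen Id3- eTR against Id3+ eTR, 145, 200 and 51 between tissues in Id3- eTR, Id3+ eTR and Id3+ cTR, 47, 37 and 29 in the 3 interactions and 362 averaged over populations, against 326, 538, 408, 38, 36, 1, 3, 0, 0 and 115 with edgeR. Without the 3 libraries 730 were called in spleen Id3- eTR and 69 in spleen Id3+ eTR against Id3+ cTR, 70 and 9 between tissues in Id3- eTR and Id3+ eTR, 1 in the interaction of Id3- eTR against Id3+ eTR and 68 averaged. No filter gave 62 between tissues in Id3+ eTR and 4 in that interaction, and the block gave 2 in Id3+ cTR. Of the 6 genes, DESeq2 called 1 between tissues in Id3+ cTR, 1 in the interaction of Id3- eTR against Id3+ eTR and 4 averaged, and without the 3 libraries 0 were called in spleen Id3+ eTR against Id3+ cTR, 0 between tissues in Id3+ eTR and 1 averaged.

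With 1 library left out, genes called ranged over 458 to 542 in lymph node Id3+ eTR against Id3+ cTR (members 2 to 3), 192 to 235 in lymph node Id3- eTR against Id3+ eTR, 256 to 645 in spleen Id3+ eTR against Id3+ cTR (members 1 to 2), 267 to 440 in spleen Id3- eTR against Id3+ eTR, 15 to 32 (members 0 to 1), 5 to 46 (members 0 to 3) and 0 to 24 between tissues in Id3- eTR, Id3+ eTR and Id3+ cTR, and 1 to 5, 0 to 1 and 0 to 5 in the interactions.

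Values near 0 that changed sign without a call ranged, over single libraries left out, for Cxcr4 from -0.21 to 0.074 in lymph node Id3- eTR against Id3+ eTR, -0.25 to 0.21 in spleen Id3- eTR against Id3+ cTR (0.080 without the 3 libraries), -0.14 to 0.32 in spleen Id3+ eTR against Id3+ cTR, -0.22 to 0.030 in spleen Id3- eTR against Id3+ eTR and -0.047 to 0.11 averaged. They ranged for S1pr1 from -0.063 to 0.095 in lymph node Id3- eTR against Id3+ eTR and -0.015 to 0.19 between tissues in Id3- eTR, and S1pr1 was 0.034 between tissues in Id3+ cTR without the 3 libraries. Ccr7 ranged from -0.11 to 0.0050 there, with 0.078 without the 3 libraries, Rhoh from -0.0048 to 0.057 in lymph node and Rap1a from -0.089 to 0.12 in spleen Id3- eTR against Id3+ cTR.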
